A study of Mus musculus with 12 samples.

Results

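The matrix metalloproteinases and their inhibitors were followed through 9 genes of the mouse liver: the gelatinases Mmp2 and Mmp9, the collagenase Mmp13, the membrane-type protease Mmp14, Mmp19, the tissue inhibitors Timp1, Timp2 and Timp3, and the related secreted protease Adamts1. The members were listed by name and matched by symbol to Ensembl identifiers, and all 9 were found among the 24187 genes of the count table. All 9 also passed the filter on low counts that left 22581 genes for testing. No measured value entered their choice by rule, although earlier results of these livers were known when the list was drawn up.

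Livers of 12 mice, C57BL/6J by the labels, were measured by bulk RNA sequencing of rRNA-depleted, strand-specific libraries. The methods of the study name C57BL/6J in one place and C57BL6/JOlaHsd in another. The control group held 3 untreated mice. Both other groups received, by the labels, 350 mg/kg acetaminophen (APAP, also called paracetamol), a drug that in excess kills hepatocytes, followed by PBS vehicle in 5 mice or by human alternatively activated macrophages (hAAMs) in 4 mice. In the methods of the study the mice were 10 to 12 weeks old and male or female, and the cells followed APAP by 16 h. The study instead names 500 mg/kg for the severe model in which the sequencing is shown, so that the labels and the study differ on the dose, and collection is given as 36 h by the methods and as 32 h by the legend of that model. Which of these times applies to the sequenced livers is not said. The hAAMs are human cells given to mice, and the reads were aligned to the mouse genome, so that transcripts of the given cells were not counted as such. The labels name each mouse as a replicate, and p-values therefore measure the spread between these mice.

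Metalloproteinases are zinc-dependent enzymes that are made as inactive precursors and, once cleaved, degrade collagens, laminins, proteoglycans and other proteins outside the cell. The tissue inhibitors (TIMPs) bind the active enzymes and block them, and the balance of both is known to set how much matrix is removed during liver injury, scarring and repair. In the liver these genes are known mainly from the non-parenchymal cells, that is from stellate cells, macrophages, neutrophils and endothelium, and not from the hepatocytes that make up most of the tissue.

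The members lie on 8 chromosomes of GRCm38, each a protein-coding gene. Mmp2 (ENSMUSG00000031740) is at chr8:92827291-92853420 on the plus strand, Mmp9 (ENSMUSG00000017737) at chr2:164940780-164955850 on the plus strand and Mmp13 (ENSMUSG00000050578) at chr9:7272514-7283331 on the plus strand. Mmp14 (ENSMUSG00000000957) is at chr14:54431612-54445364 on the plus strand and Mmp19 (ENSMUSG00000025355) at chr10:128790910-128800824 on the plus strand. Timp1 (ENSMUSG00000001131) is at chrX:20870166-20874735 on the plus strand, Timp2 (ENSMUSG00000017466) at chr11:118301069-118355740 on the minus strand and Timp3 (ENSMUSG00000020044) at chr10:86300372-86349506 on the plus strand. Adamts1 (ENSMUSG00000022893) is at chr16:85793827-85803113 on the minus strand. Mmp19 shares 789 exonic bases with Tmem198b on the opposite strand, and Timp3 shares 1733 with Syn3 on the opposite strand. Timp1 lies within the locus of Syn1 without shared exonic bases. Whether the authors' counting used strand is not given in the sources used here, so reads in the shared bases cannot be assigned to one gene with certainty.

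Promoter windows of RefSeq (GRCm38.p6, 300 bases around the start of a gene) held 6 of the 9 members, namely Mmp13, Mmp14, Timp1, Timp2, Timp3 and Adamts1. Those of Timp1 and Mmp13 are printed for the 250 bases before the start, because Timp1 was the member that differed most from control and Mmp13 the only one with the AP-1 letters. Capitals mark the AP-1 letters TGANTCA and the ETS letters AGGAAG, as read 5′ to 3′ on the strand of the gene, with the windows at chrX:20869916-20870165 (plus strand) for Timp1 and chr9:7272264-7272513 (plus strand) for Mmp13.
Timp1: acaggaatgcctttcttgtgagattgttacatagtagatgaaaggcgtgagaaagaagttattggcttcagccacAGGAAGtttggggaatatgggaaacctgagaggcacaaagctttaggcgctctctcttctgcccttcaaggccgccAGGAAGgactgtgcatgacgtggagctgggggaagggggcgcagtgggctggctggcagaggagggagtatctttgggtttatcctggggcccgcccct
Mmp13: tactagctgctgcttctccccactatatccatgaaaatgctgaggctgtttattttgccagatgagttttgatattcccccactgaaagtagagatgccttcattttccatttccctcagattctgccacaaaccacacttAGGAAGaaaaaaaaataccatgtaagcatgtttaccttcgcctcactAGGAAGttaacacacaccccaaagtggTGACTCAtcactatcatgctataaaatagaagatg

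The letters were searched on both strands of the 300-base windows, with N standing for any base. The AP-1 letters were found in 1 of the 6 members, Mmp13, where TGACTCA began 35 bases before the start, and in 7.81% of the 32851 windows of all genes. AGGAAG was found in 4 of 6 members (Mmp13, Mmp14, Timp1 and Timp3) against 35.4% of all windows, and the Sp1 letters GGGCGG in 5 of 6 (all but Mmp13) against 35.7%. The NF-kB letters GGGANTTCC were in 0 of 6 members and 1.68% of all windows. TATAAA was in 2 of 6, Mmp13 and Adamts1, and in 13.6% of all windows. Mmp13 thus differed from the other 5 windows by letters for AP-1 and by the lack of GGGCGG. A match is a description of the sequence only, and the letters were not tested against the expression values.

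Library totals lay between 47391650 and 74056505 counts. Expression is given as counts per 1000000 counts of the library (CPM) after TMM scaling, which corrects for a few abundant genes taking a larger share of one library. Hepatocyte markers, the defining genes of the labelled tissue, summed to between 58245 and 93525 CPM in each liver. Vehicle replicate 3 and hAAM replicate 4 differed by 1.19 times counting noise, whereas the other 35 pairs of injured livers differed by 2.37 to 4.98 times. They carry different group labels and were kept in their groups, although whether they come from separate animals could not be checked, and every n given here counts both. For this reason the fold changes of members that passed the test against control are also given without both. Those of other genes are not. Vehicle replicate 5 stood apart in blood cell transcripts, with B cell markers summing to 90.1 CPM against at most 12.5 in every other liver, and red cell markers to 2025 CPM against at most 733.

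Per length of exon, Mmp19 was the most abundant member in control livers at 15.1 ± 1.15 CPM per kb (SD, n = 3), followed by Mmp14 at 7.65 ± 0.910. Timp2 (3.73 ± 0.741) and Adamts1 (3.22 ± 0.666) overlapped between livers, and Timp3 followed at 2.30 ± 0.350. Mmp2 (1.04 ± 0.420), Mmp9 (0.516 ± 0.385), Timp1 (0.496 ± 0.631) and Mmp13 (0.242 ± 0.268) came last, and none of these neighbours differed beyond their ranges. The ranges of Mmp19 and Mmp14, of Mmp14 and Timp2, of Adamts1 and Timp3 and of Timp3 and Mmp2 did not overlap in control livers.

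**Figure D1:**
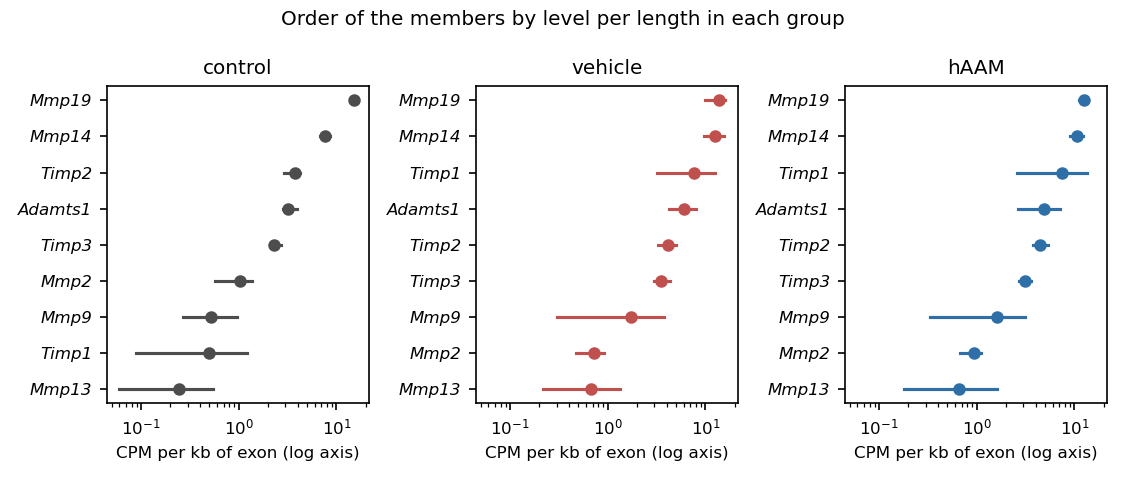
Level of each member per length of exon in each group, as mean (point) and range over livers (line) in CPM per kb on a log axis. Timp1 moved from the 8th place in control livers (0.496) to the 3rd place in vehicle-treated (7.65) and hAAM-treated livers (7.40), between Mmp14 and Adamts1.

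In both injured groups Timp1 took the 3rd place of the order. The other members kept their sequence except that Mmp9 came before Mmp2 and Adamts1 before Timp2. In vehicle-treated livers the order was Mmp19 (13.6 ± 2.32 CPM per kb, SD, n = 5), Mmp14 (12.5 ± 2.33), Timp1 (7.65 ± 3.90), Adamts1 (6.05 ± 1.36), Timp2 (4.13 ± 0.722), Timp3 (3.55 ± 0.473), Mmp9 (1.74 ± 1.38), Mmp2 (0.725 ± 0.168) and Mmp13 (0.669 ± 0.568), and every pair of neighbours overlapped. The hAAM-treated livers had the same order, from Mmp19 at 12.6 ± 1.11 (SD, n = 4) and Timp1 at 7.40 ± 5.53 to Mmp13 at 0.655 ± 0.658, and of the neighbours only Timp2 and Timp3 did not overlap. The order depends on the length used: with the longest transcript in place of all exons, Mmp14 stood above Mmp19 in vehicle-treated (23.0 against 14.2) and hAAM-treated livers (19.5 against 13.1), but not in control livers (14.1 against 15.7). By that length Timp3 also moved up, to 3.97 in control livers, with ranges that then overlapped those of Timp2 (3.92) and Adamts1 (3.49) below it. It stood above Timp2 in vehicle-treated livers (6.13 against 4.34) and above Adamts1 and Timp2 in hAAM-treated livers (5.35 against 5.25 and 4.72).

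Summed over the 3 inhibitors and over the 5 metalloproteinases, the transcript ratio of TIMPs to MMPs on the CPM per kb scale was 0.311, 0.274 and 0.211 in control livers 1 to 3. It was 0.597, 0.435, 0.396, 0.591 and 0.556 in vehicle-treated livers 1 to 5 and 0.652, 0.718, 0.451 and 0.403 in hAAM-treated livers 1 to 4. All 9 injured livers lay above the control livers, and both injured groups overlapped. Timp1 made up 1.76% to 16.03% of the TIMP sum in control livers, 33.5% to 61.0% in vehicle-treated and 26.4% to 64.9% in hAAM-treated livers. These sums are given as a description, and no test was run on them. They hold the listed members only. Mmp12 (mean 0.604 CPM in control, 19.5 with vehicle and 20.5 with hAAMs) and Mmp15 (43.7, 34.3 and 36.3 CPM) are left out. The ratio is therefore not that of all metalloproteinases of the liver.

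The first comparison asked which members changed with APAP injury in mice given vehicle. Timp1, Mmp14, Timp3 and Adamts1 rose, Timp1 by 15.6-fold and the other 3 by 1.54-fold to 1.88-fold. Mmp2, Mmp9, Mmp13, Mmp19 and Timp2 did not pass the test. Thus 4 of 9 members were higher and 0 lower at an FDR of 0.05 (edgeR's quasi-likelihood test with Benjamini-Hochberg adjustment over all genes), where 15.0% of the 22581 genes tested were higher, 14.8% lower and 29.8% called in either direction. DESeq2 called the same 4 and 34.0% of all genes, and the same 4 had an unadjusted p under 0.05, as did 41.8% of all genes. Vehicle-treated and control livers did not overlap in these 4 members, which held upward for 17.5%, downward for 17.3% and in either direction for 34.8% of all genes. The median log2 fold change was 0.71 over the members and 0.012 over all genes tested.

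The second comparison asked the same in mice given hAAMs. Timp1 rose by 15.1-fold and Timp3 by 1.35-fold, 2 of 9 members, where 10.7% of all genes were higher, 9.96% lower and 20.7% called in either direction. Mmp14 was at a log2 fold change of 0.47 with an edgeR FDR of 0.0583. It made a 3rd member called by DESeq2, which called 25.8% of all genes, and a 3rd with an unadjusted p under 0.05, which 35.2% of all genes had. The livers of both groups did not overlap for these 3 members, higher with hAAMs, and for Mmp19, lower with hAAMs, where 14.3% of all genes were apart upward, 14.2% downward and 28.5% in either direction. Over the members the median log2 fold change was 0.47, and over all genes it was 0.016. Both comparisons share the 3 control livers.

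The third comparison set the hAAM-treated livers directly against the vehicle-treated livers. Of the 9 members, 0 differed at an FDR of 0.05 with edgeR, 0 had an unadjusted p under 0.05, and DESeq2 called 0. Over all genes edgeR called 0%, DESeq2 called 0.00443%, and 5.02% had an unadjusted p under 0.05. The livers of both treatments overlapped in each of the 9 members, while 1.40% of all genes had no overlap. The median log2 fold change was −0.10 over the members and 0.0032 over all genes. Mmp14 and Adamts1, called with vehicle only, are therefore not shown to differ between the treatments.

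**Figure D2:**
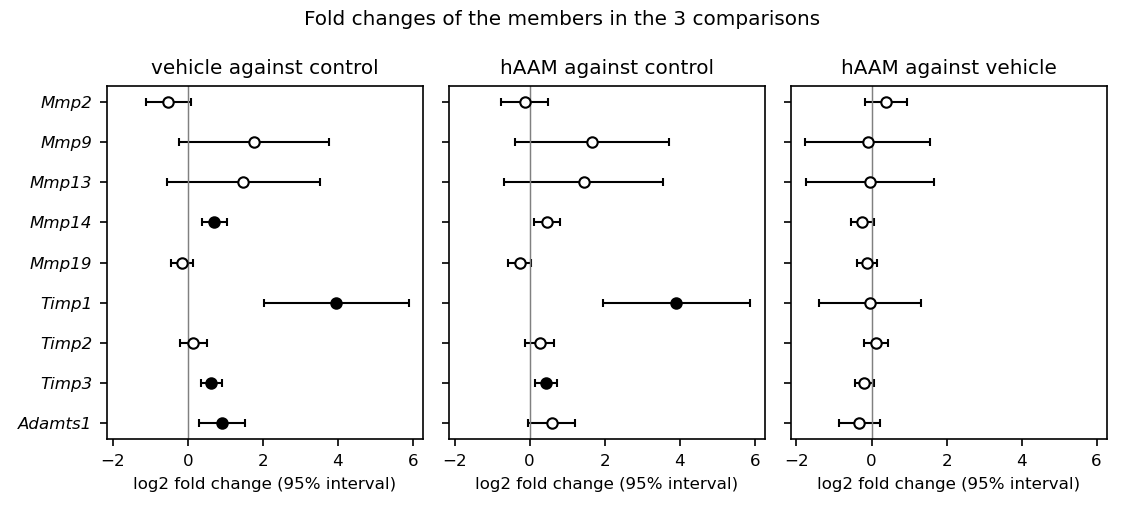
Log2 fold change of each member in the 3 comparisons, with the 95% interval derived from the quasi-likelihood F statistic as bars and filled points for an edgeR FDR under 0.05. Timp1 stood at 3.96 and 3.91 against control, and every interval between the treatments included 0.

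Mmp2, gelatinase A, cleaves denatured collagen and basement membrane collagen and is activated at the cell surface by Mmp14 together with Timp2. Its level was 4.63, 3.96 and 1.92 CPM in control livers 1 to 3, 3.11, 1.60, 2.44, 2.76 and 2.29 CPM in vehicle-treated livers 1 to 5, and 3.48, 3.74, 3.29 and 2.26 CPM in hAAM-treated livers 1 to 4. Control replicate 3 lay below 4 of the 5 vehicle-treated livers, so that all 3 groups overlapped. Against control it changed by −0.52 ± 0.276 (SE; edgeR FDR = 0.174) with vehicle and −0.14 ± 0.291 (FDR = 0.776) with hAAMs on the log2 scale, neither past the threshold. Without control replicate 3 the first of these was −0.81 with an FDR of 0.0356, lower with vehicle. No other of the 21 alternatives passed, and over all of them this value ranged from −0.81 to −0.17, with edgeR or DESeq2 FDRs up to 0.663. Between the treatments it was 0.39 (95% interval −0.17 to 0.94, edgeR FDR = 0.969).

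Mmp9, gelatinase B, is stored in neutrophil granules and is also secreted by macrophages. It stood at 3.39, 1.13 and 0.948 CPM in control livers 1 to 3, at 6.80, 2.19, 1.06, 13.4 and 7.32 CPM in vehicle-treated livers 1 to 5, and at 9.12, 11.1, 1.57 and 1.18 CPM in hAAM-treated livers 1 to 4. In each injured group some livers were high, namely vehicle 1, 4 and 5 and hAAM 1 and 2, and the rest lay within the range of control. The log2 fold change against control was 1.76 ± 0.918 (SE; edgeR FDR = 0.166) with vehicle and 1.66 ± 0.942 (FDR = 0.230) with hAAMs. With each mouse left out in turn these ranged from 1.26 to 2.56 and from 1.12 to 2.46, the highest without control replicate 1, and without both near-identical libraries they were 2.03 (edgeR FDR = 0.0667) and 2.00 (edgeR FDR = 0.101). Between the treatments it was −0.10, with a 95% interval from −1.77 to 1.57 that covers more than a doubling in either direction.

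Mmp13, the main interstitial collagenase of rodents, had the lowest group mean per length of exon in all 3 groups. Its level was 1.47, 0.315 and 0.158 CPM in control livers 1 to 3, 0.705, 0.766, 0.581, 3.31 and 3.58 CPM in vehicle-treated livers 1 to 5, and 1.63, 4.28, 0.484 and 0.616 CPM in hAAM-treated livers 1 to 4. Control replicate 1 was above vehicle-treated livers 1, 2 and 3, and the values above control were those of vehicle 4 and 5 and hAAM 1 and 2. Against control its log2 fold change was 1.49 ± 0.942 (SE; edgeR FDR = 0.254) with vehicle and 1.45 ± 0.973 (FDR = 0.315) with hAAMs. With each mouse left out these ranged from 1.03 to 2.89 and from 0.50 to 2.85, the highest without control replicate 1, and none passed the test. The values without both near-identical libraries were 1.71 and 1.73. The interval between the treatments ran from −1.75 to 1.67.

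Mmp14, also called membrane-type 1 MMP, sits in the cell membrane, cleaves fibrillar collagen and activates Mmp2. It was measured at 45.7, 51.0 and 40.1 CPM in control livers 1 to 3, 66.3, 71.4, 58.0, 85.0 and 92.1 CPM in vehicle-treated livers 1 to 5, and 68.1, 72.7, 53.6 and 57.9 CPM in hAAM-treated livers 1 to 4. All 9 injured livers were above all 3 control livers, and vehicle-treated livers 4 and 5 were above every hAAM-treated liver. The mean rose from 45.6 ± 5.42 CPM (SD, n = 3) in control to 74.5 ± 13.9 CPM (SD, n = 5) with vehicle, or by 0.71 ± 0.156 on the log2 scale (SE; edgeR FDR = 0.00604). With hAAMs it was 63.1 ± 8.86 CPM (SD, n = 4), or 0.47 ± 0.161 on the log2 scale (edgeR FDR = 0.0583, DESeq2 FDR = 0.0359). Without both near-identical libraries these values were 0.79 (edgeR FDR = 0.00366) and 0.51 (edgeR FDR = 0.0424), so that the second then passed the test. Between the treatments the log2 fold change was −0.24 (95% interval −0.55 to 0.06, edgeR FDR = 0.969).

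Mmp19, which cleaves components of the basement membrane, was the most abundant member in control livers and the only one whose hAAM-treated livers all lay below control. Its level was 49.4, 53.2 and 57.5 CPM in control livers 1 to 3, 56.0, 50.8, 45.9, 53.2 and 35.1 CPM in vehicle-treated livers 1 to 5, and 45.4, 39.1, 48.5 and 44.7 CPM in hAAM-treated livers 1 to 4. Vehicle-treated livers overlapped with control, while all 4 hAAM-treated livers were below every control liver. The log2 fold change was −0.15 ± 0.131 (SE; edgeR FDR = 0.423) with vehicle and −0.27 ± 0.137 (FDR = 0.188) with hAAMs, and neither passed the test. The direction of both depended on the scaling: by library size alone, which moved the median of all genes to 0.36 with vehicle and 0.32 with hAAMs, Mmp19 was at 0.20 and 0.031. The antisense neighbour Tmem198b had 135 to 258 counts per liver.

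**Figure D3:**
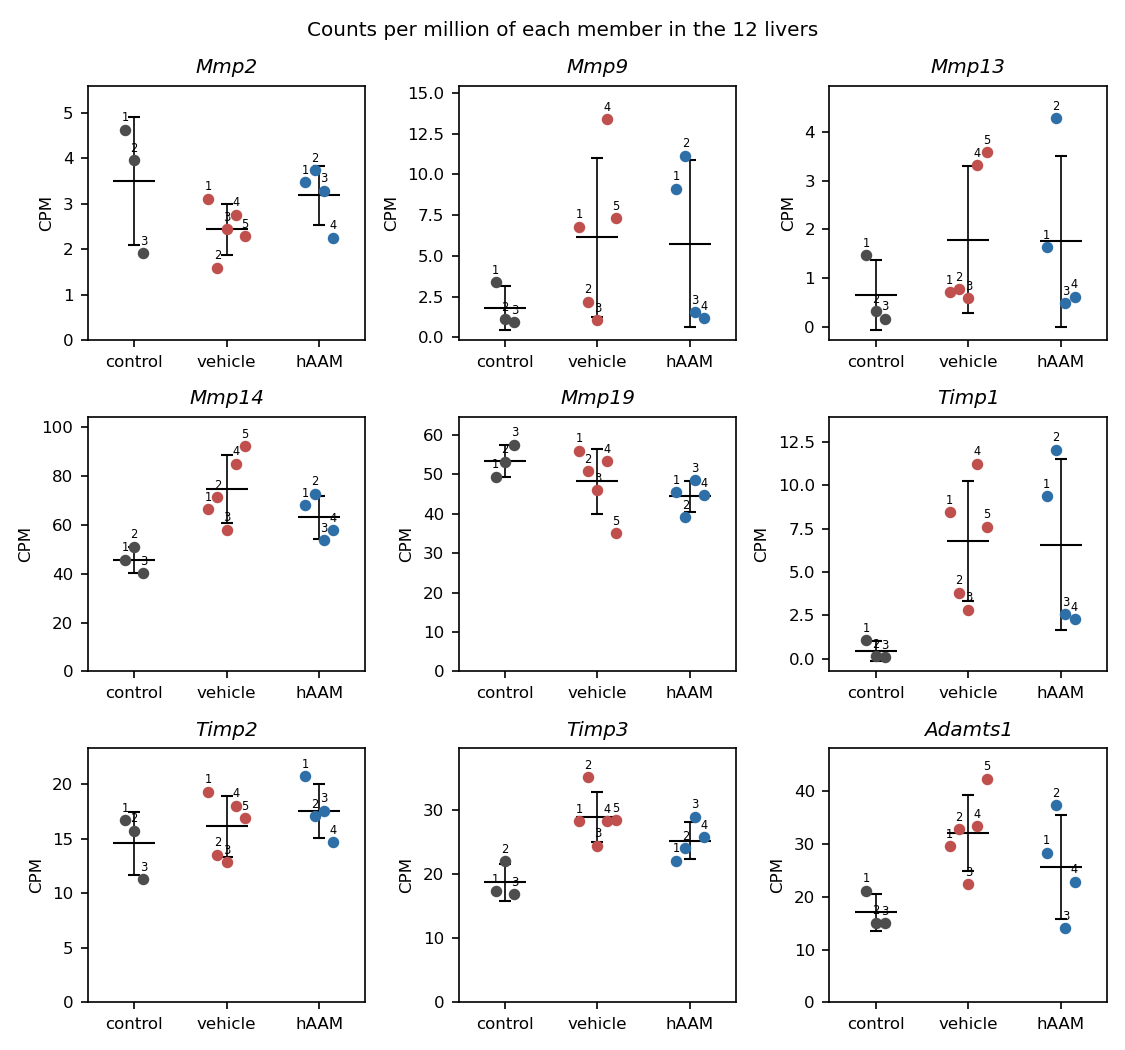
CPM of each member in the 12 livers, numbered by replicate, with the group mean (long line) and SD (bars), each panel on its own linear axis. The injured livers lay above the control livers without overlap for Timp1, Mmp14 and Timp3, and for Adamts1 with vehicle only.

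Timp1, an inhibitor of most secreted metalloproteinases that is known to be induced in injured liver, differed most. It was at 1.09, 0.157 and 0.0790 CPM in control livers 1 to 3, from 57, 10 and 4 counts, at 8.47, 3.81, 2.83, 11.3 and 7.62 CPM in vehicle-treated livers 1 to 5, and at 9.38, 12.1, 2.58 and 2.28 CPM in hAAM-treated livers 1 to 4. Every injured liver was above every control liver, and vehicle 1, 4 and 5 and hAAM 1 and 2, at 7.62 CPM or more, lay above the other 4, at 3.81 CPM or less. Timp1 rose by 3.96 ± 0.887 (SE; edgeR FDR = 0.00654) with vehicle and 3.91 ± 0.901 (FDR = 0.0117) with hAAMs on the log2 scale. The size rests on control replicate 1, which held most of the control counts: without it the values were 5.78 and 5.73. Without both near-identical libraries they were 4.16 (edgeR FDR = 0.00482) and 4.20 (edgeR FDR = 0.00929). Between the treatments the log2 fold change was −0.05, with a 95% interval from −1.41 to 1.31.

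Timp2, which binds Mmp2 and takes part in its activation by Mmp14, was at 16.7, 15.7 and 11.3 CPM in control livers 1 to 3, 19.3, 13.5, 12.9, 18.0 and 16.9 CPM in vehicle-treated livers 1 to 5, and 20.7, 17.0, 17.5 and 14.7 CPM in hAAM-treated livers 1 to 4. All 3 groups overlapped. The log2 fold change was 0.15 (95% interval −0.22 to 0.51, edgeR FDR = 0.537) with vehicle, 0.26 (−0.11 to 0.64, FDR = 0.303) with hAAMs and 0.12 (−0.21 to 0.45, FDR = 0.987) between the treatments.

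Timp3, which stays bound to the matrix and also inhibits ADAM and ADAMTS proteases, rose with vehicle and, with a call that depended on the mice included and on the fit, with hAAMs. Its level was 17.3, 22.0 and 16.9 CPM in control livers 1 to 3, 28.3, 35.1, 24.5, 28.3 and 28.4 CPM in vehicle-treated livers 1 to 5, and 22.1, 24.1, 29.0 and 25.8 CPM in hAAM-treated livers 1 to 4. No injured liver was below the highest control liver, although hAAM replicate 1 lay just above it. The log2 fold change was 0.63 ± 0.130 (SE; edgeR FDR = 0.00444) with vehicle and 0.43 ± 0.134 (FDR = 0.0401) with hAAMs. Without both near-identical libraries the first was 0.69 (edgeR FDR = 0.00467), and the second was 0.42 and lost the call (edgeR FDR = 0.0602). The call with hAAMs held in 6 of the 12 fits that left out a mouse, and was lost without control replicate 1 (edgeR FDR = 0.124), control replicate 3 (0.143), vehicle replicate 1 (0.0526), hAAM replicate 2 (0.0635), hAAM replicate 3 (0.0757) or hAAM replicate 4 (0.0666). It was also lost with the replicate number in the model and with only the 2 groups compared, and held in 12 of all 21 alternatives. Syn3, which overlaps Timp3 on the opposite strand with 136 to 297 counts per liver, rose as well, with log2 fold changes of 0.73 (edgeR FDR = 0.00219) and 0.47 (edgeR FDR = 0.0303). Between the treatments Timp3 was at −0.20 (95% interval −0.45 to 0.06, edgeR FDR = 0.969).

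Adamts1, a secreted protease with thrombospondin motifs that cleaves the proteoglycans aggrecan and versican, rose with vehicle. It stood at 21.1, 15.1 and 15.0 CPM in control livers 1 to 3, at 29.6, 32.8, 22.3, 33.3 and 42.3 CPM in vehicle-treated livers 1 to 5, and at 28.3, 37.3, 14.0 and 22.9 CPM in hAAM-treated livers 1 to 4. All 5 vehicle-treated livers were above control, while hAAM replicate 3 was below every control liver. The log2 fold change was 0.91 ± 0.278 (SE; edgeR FDR = 0.0278) with vehicle and 0.59 ± 0.286 (FDR = 0.164) with hAAMs. The first call was lost without control replicate 2 (edgeR FDR = 0.0928), control replicate 3 (0.0995), vehicle replicate 4 (0.0504) or vehicle replicate 5 (0.0563). The second comparison passed in 1 of the 12 fits that left out a mouse, that without hAAM replicate 3 (log2 fold change 0.79, edgeR FDR = 0.0310). Over these 12 fits its log2 fold change ranged from 0.35 to 0.79, with edgeR FDRs up to 0.400. Without both near-identical libraries the values were 1.02 (edgeR FDR = 0.0216) and 0.64 (edgeR FDR = 0.154). Between the treatments the log2 fold change was −0.32, with a 95% interval from −0.86 to 0.22.

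Among the injured livers, those that were high for Timp1 were also high for Mmp9, and the summed markers of several cell types moved along. In bulk tissue, more cells of a type and more RNA per cell cannot be told apart. The summed neutrophil markers were 28.5, 11.1 and 7.13 CPM in control livers 1 to 3, 26.6, 14.8, 11.1, 44.7 and 44.9 CPM in vehicle-treated livers 1 to 5, and 34.6, 41.0, 12.7 and 12.1 CPM in hAAM-treated livers 1 to 4. Within the injured groups the higher livers were vehicle 1, 4 and 5 and hAAM 1 and 2, as for Mmp9 and Timp1. Control replicate 1 was the highest control liver in all 3 measures, and in the neutrophil sum it lay above vehicle replicate 1. Of the 8 neutrophil markers tested, edgeR called 0 against control in either group, where 29.8% of all genes were called with vehicle and 20.7% with hAAMs. With vehicle 1 had an unadjusted p under 0.05 and with hAAMs 0, where 41.8% and 35.2% of all genes did. DESeq2 called 0 in both, where it called 34.0% and 25.8% of all genes. Mpo was not analysed here, and Elane reached at most 20 counts.

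Markers of recruited monocytes and macrophages summed to 37.8 to 41.2 CPM in control, 108 to 198 CPM in vehicle-treated and 107 to 202 CPM in hAAM-treated livers, and 6 of 8 rose in each injured group. Among them were Chil3 at log2 fold changes of 5.67 and 5.45 and Trem2 at 2.78 and 2.94. Markers of activated stellate cells summed to 81.0 to 236 CPM in control, 335 to 960 CPM with vehicle and 300 to 1152 CPM with hAAMs, and 7 of 8 and 6 of 8 rose. The highest stellate sums were again those of vehicle 1 and 4 and hAAM 1 and 2. Sinusoidal endothelial markers rose in 4 of 7 and 3 of 7, and 1 of 6 Kupffer cell markers rose in each group. All marker counts of this paragraph stand beside 15.0% of all genes higher and 14.8% lower with vehicle, and 10.7% and 9.96% with hAAMs. The Kupffer cell count lay near these shares. The shares by unadjusted p and by DESeq2 given for the neutrophil markers apply here as well. Of the hepatocyte markers 3 of 7 fell with vehicle, namely Glul, Cyp2e1 and Hnf4a (log2 fold changes −4.27, −2.37 and −0.38). With hAAMs 1 of 7 fell, Glul (−4.17). Alb, Apoa1, Ttr and Serpina1a were not called in either group. Markers of quiescent stellate cells rose in 2 of 8 in each group, and edgeR called 0 of 5 cholangiocyte, 0 of 5 mesothelial and 0 of 7 B cell markers in either (1 cholangiocyte marker in each had an unadjusted p under 0.05 and 0 of the others did, and DESeq2 called 1, 0 and 0). Of the 5 red cell markers, the globins Hba-a1, Hba-a2, Hbb-bs and Hbb-bt were higher with vehicle (log2 fold changes 2.46 to 2.56) and at 2.21 to 2.24 with hAAMs, where edgeR called none of these 4 (FDR 0.0618 to 0.0699, each with an unadjusted p under 0.05) and DESeq2 called all of them. The red cell sum of vehicle replicate 5 (2025 CPM) lay far above those of the other 4 vehicle-treated livers (220 to 519 CPM), and the fold changes include it. Alas2, the enzyme that starts haem synthesis in red cell precursors, was lower in both groups at −1.66 and −1.27. Among the injured livers, vehicle 1, 4 and 5 and hAAM 1 and 2 also had lower hepatocyte sums (61723 to 73700 CPM) than the other 4 (83252 to 93525 CPM), and higher sums of mesothelial markers (6.97 to 14.02 CPM against 3.27 to 4.26 CPM) and of cholangiocyte markers (116 to 301 CPM against 63.8 to 99.1 CPM). In control livers 1 to 3 the hepatocyte sums were 88327, 80008 and 58245 CPM, so that control replicate 3 was the lowest of all livers. Control sums were 3.68 to 5.85 CPM for mesothelial and 40.3 to 65.5 CPM for cholangiocyte markers. Alb held most of the hepatocyte sums and was not called against control (edgeR FDR = 0.729 with vehicle and 0.657 with hAAMs). Most of the highest cholangiocyte sums was Spp1, with up to 253 CPM with vehicle and 195 CPM with hAAMs, a gene that is also in the list of matrix substrates. The part of these cell types in the values of the members was not tested.

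**Figure D4:**
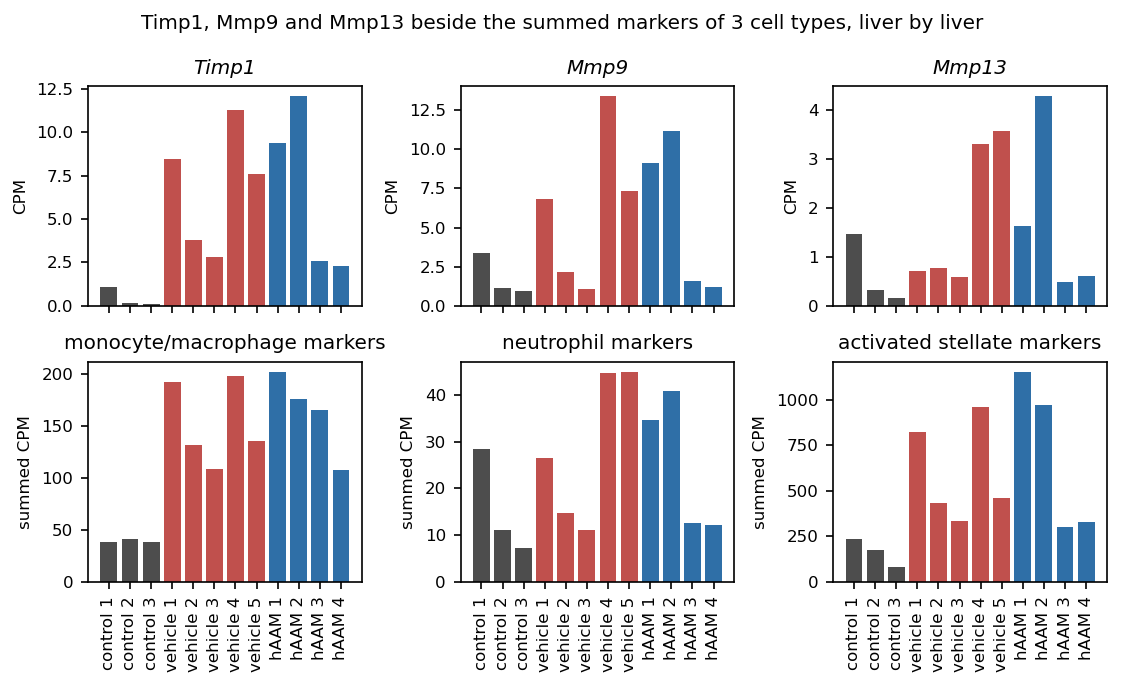
Timp1, Mmp9 and Mmp13 in CPM (upper panels) and the summed CPM of the markers of 3 cell types (lower panels) in each liver, as bars from 0. Vehicle replicate 4 and hAAM replicates 1 and 2 were high in Timp1, Mmp9 and all 3 marker sums, and the control livers were low in the monocyte and macrophage markers (37.8 to 41.2).

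The genes whose pattern over the 12 livers came closest to that of a member were found by the root mean square difference of log2 CPM after centring each gene. For Timp1 they were F13a1, the A chain of clotting factor XIII, at 0.492, the leukocyte protease Adam8 at 0.505 and the macrophage elastase Mmp12 at 0.637, beside a standard deviation of 2.22 for Timp1 itself. Mmp14 was closest to Ankrd50 (0.102), Slc3a2 (0.103) and Trp53i11 (0.106), with a standard deviation of 0.354. Timp3 was closest to 1810043G02Rik (0.124), the Wnt receptor Fzd5 (0.126) and Maml3 (0.137), with a standard deviation of 0.309. For Adamts1 they were the semaphorin Sema3f (0.133), the junctional adhesion molecule Jam2 (0.140) and Gm37352 (0.153), with a standard deviation of 0.538. The differences of Timp1 to its closest genes were larger than those of the other 3 members, and so was its own spread.

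Around the members, 79 further genes of the same system were tested, in 6 lists. With vehicle 33 were higher, 8 lower and 38 not called, with a median log2 fold change of 0.93, beside 15.0% of all genes higher and 14.8% lower. With hAAMs 27 were higher, 4 lower and 48 not called, with a median of 0.72, beside 10.7% higher and 9.96% lower. The counts of the single lists below stand beside the same shares. Between the treatments edgeR called 0 of them, DESeq2 called 0, and 1 had an unadjusted p under 0.05, as did 5.02% of all genes. The count with vehicle fell from 41 to 25 without control replicate 3, and that with hAAMs from 31 to 17 without the same liver and to 20 without hAAM replicate 1 or 2. In the same fits the calls over all genes fell from 6719 to 4633 with vehicle, and from 4666 to 2419, 2799 and 2942 with hAAMs. These counts were 48 and 34 without both near-identical libraries.

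Among the other metalloproteinases, 5 of 14 were higher with vehicle (median 1.00) and 4 of 14 with hAAMs (median 0.66), and 0 were lower. Among those averaging 0 or more in log2 CPM, Mmp12 rose most, by 5.02 ± 0.565 on the log2 scale (SE; edgeR FDR = 1.80e-04) with vehicle and 5.09 ± 0.573 (FDR = 3.02e-04) with hAAMs. Mmp3, stromelysin 1, rose by 3.89 ± 0.798 (FDR = 0.00423) and 2.68 ± 0.804 (FDR = 0.0348). The membrane-anchored Mmp24 rose with vehicle at 1.43 (FDR = 0.0312) and Mmp17 with hAAMs at 1.16 (FDR = 0.0100). Mmp17 with vehicle (0.99, FDR = 0.0112) and Mmp10, which had 0 counts in every control liver and at most 36 in a vehicle-treated liver, were the other genes called, and they are named after their values were seen. Mmp3, Mmp10 and Mmp12 belong to the cluster of metalloproteinase genes that also holds Mmp13, which was not called in either group. Nor were Mmp7, Mmp8 and Mmp27 of this list.

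Of the other ADAMTS proteases, 4 of 14 were higher with vehicle and 3 of 14 with hAAMs (medians 0.44 and 0.43). Adamts12 was at 2.43 and 2.32, Adamts7 at 1.75 and 1.65 and Adamts6 at 1.65 and 1.07, with edgeR FDRs from 4.44e-05 to 0.0221. Of the ADAM proteases, 3 of 7 were higher and 1 lower in each group (medians 1.05 and 0.93). Adam8 rose by 3.87 and 3.86 on the log2 scale, Adam12 by 3.42 and 3.10 and Adam15 by 1.72 and 1.52, while Adam9 was lower at −0.40 and −0.49. Each gene named here passed the test in both groups.

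The other inhibitors and binding partners moved in both directions, with 4 of 12 higher and 3 lower with vehicle (median −0.10) and 3 higher and 2 lower with hAAMs (median −0.03). The inhibitor Tfpi2 fell, at −1.31 ± 0.149 (SE; edgeR FDR = 1.90e-04) and −1.05 ± 0.158 (FDR = 0.00166), and so did Lrp1, a receptor that clears protease complexes, at −0.65 and −0.69. Pzp, a broad protease inhibitor of mouse plasma, fell with vehicle at −0.59 (FDR = 0.0297). Those that rose were Cd44, which can hold Mmp9 at the cell surface, at 1.80 and 1.65, the integrin subunit Itgb3 at 1.47 and 1.16, the integrin subunit Itgav at 0.86 (edgeR FDR = 0.00978) and 0.73 (edgeR FDR = 0.0311), and Thbs1 with vehicle at 2.32. The value of Itgav with vehicle is the only one of these outside the rule for named genes, and it was added after it was seen. Timp4, the remaining TIMP, had 39 counts over all 12 livers and was not tested.

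Of the activators and the plasmin system, 5 of 12 were higher and 4 lower with vehicle (median 0.63), and 3 higher and 1 lower with hAAMs (median 0.62). The plasminogen activators Plat (3.98 and 3.70) and Plau (2.99 and 3.08) and the urokinase receptor Plaur (2.68 and 2.15) rose in both groups. Serpine2, an inhibitor of both activators, fell at −1.24 and −1.09. Plasminogen itself, Plg, was lower with vehicle at −0.68 (edgeR FDR = 0.0329), as was Serpinf2, the inhibitor of plasmin, at −0.49 (edgeR FDR = 0.0267).

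Among 20 matrix substrates, 12 were higher with vehicle (median 1.45) and 11 with hAAMs (median 1.33), and 0 were lower. Tenascin C, Tnc, was at 4.49 ± 0.664 (SE; edgeR FDR = 8.13e-04) and 4.16 ± 0.663 (FDR = 0.00219). Versican, Vcan, a substrate of Adamts1, was at 3.23 and 2.89, and the collagen chain Col1a1 at 2.41 and 2.64. The lists overlap with the stellate cell markers in Col1a1, Col1a2 and Col3a1, and with the cholangiocyte markers in Spp1.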

How the data were processed

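Bulk RNA sequencing was analysed in 12 mouse livers, grouped by the sample labels as control (n = 3), vehicle (n = 5) and hAAM (n = 4). The authors trimmed the reads with Cutadapt 4.6, aligned them to GRCm38 with STAR 2.7.1a and counted them per Ensembl gene. What the authors deposited are unnormalized counts of 24187 genes, and a GENCODE annotation of GRCm38 gave symbols for 24092 of them. The counting mode is not given in the sources used here.

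Counts were tested with edgeR 4.0.16 in R 4.3.3. Genes were filtered with filterByExpr by group and scaled with TMM, a single quasi-likelihood model with group terms was fitted to the 12 livers, p-values were two-sided, and the Benjamini-Hochberg FDR ran over the 22581 genes tested at a threshold of 0.05. The spread between livers (common biological coefficient of variation) was 0.214. The code was first tested on simulated data. CPM was taken after TMM scaling, levels per kb used the union of exons, and log2 CPM for the pattern search used a prior count of 2, and only genes averaging 2 or more on that scale. Alternatives were DESeq2 1.42.0, other scaling, other filters, only the groups compared, robust estimation, a replicate block, each mouse left out in turn, and both near-identical libraries left out.

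The members and all lists were chosen with earlier results of these data known, so no test was run on a list as a whole. All 9 members were named. From each list the text names up to 3 genes with the largest rise and up to 3 with the largest fall among called genes that averaged 0 or more in log2 CPM. Promoter windows came from RefSeq, and windows of Mmp2, Mmp9 and Mmp19 were not used here.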

Additional observations from a re-analysis of the deposited data

How the results depend on the processing

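With vehicle against control, 3 or 4 members were called in every alternative, and Mmp14 and Timp3 in all of them. Timp1 dropped out only where 10 counts were asked of every liver, since it was then not tested. With hAAMs against control the count of 2 was less stable: library size alone gave 4 (adding Mmp14 and Adamts1), where 7340 of all genes were called in place of 4666. It fell to 1 both with at least 10 counts in every liver (4257 of 18537 genes called) and with only the 2 groups compared (2729 of 21492). Leaving out each mouse gave 1 to 3 members there, 25 to 47 called pathway genes with vehicle and 17 to 43 with hAAMs. Between the treatments every alternative called 0 members.

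Fold changes that changed sign were small or widely spread, and the cause was not tested. By library size alone Mmp19 was at 0.20 with vehicle and 0.031 with hAAMs, and Mmp2 at 0.17 with hAAMs, against control. Without both near-identical libraries Mmp2 was at 9.30e-04 with hAAMs against control, and between the treatments Mmp13 was at 0.018 and Timp1 at 0.034. With each mouse left out, Timp2 with vehicle ranged from −0.0073 to 0.26, Mmp2 with hAAMs against control from −0.43 to 0.12, and between the treatments Mmp9 ranged from −0.64 to 0.40, Mmp13 from −0.98 to 0.37 and Timp1 from −0.52 to 0.23.

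The replicate numbers showed no clear pairing: deviations of livers with the same number correlated at −0.46 to 0.38 over 10 pairs, against −0.48 to 0.50 over 37 others. The highest value, 0.50, was that of the near-identical libraries. Such overlapping ranges cannot exclude pairing or a shared batch. With a replicate block 4, 2 and 0 members were called in the 3 comparisons, and 4253, 2959 and 0 of all genes against 6719, 4666 and 0 without it. With hAAMs it lost Timp3 (0.44, edgeR FDR = 0.0701) and gained Mmp14 (0.44, edgeR FDR = 0.0438), and it put Mmp9 at 0.24 and Mmp13 at 0.40 between the treatments.

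Control livers held 4 to 57 counts of Timp1, 8 to 77 of Mmp13, 48 to 178 of Mmp9 and 97 to 252 of Mmp2, and 570 or more of every other member.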
